A study of Dorcoceras hygrometricum with 3 samples.

Results

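The regions described here are stretches of leaf DNA just past the end of a gene whose methylation differed between dehydrated and hydrated leaves of Boea hygrometrica (also named Dorcoceras hygrometricum), a resurrection plant. They were taken from the authors' deposited lists as the regions labelled downstream that were listed for 1 gene only. There were 506 such regions among 2690 distinct regions listed for the comparison of 70% relative water content (RWC) with the hydrated state (HD). For the comparison of 10% RWC with HD there were 543 among 3093. The remaining regions with that label were listed for several genes and are left out: they covered 420 of 926 genes with a downstream label at 70% RWC and 500 of 1043 at 10% RWC. Leaves came from potted plants that had dried to 70% RWC, a moderate loss, or to 10% RWC, the desiccated state, or that were hydrated, with no allele or other agent named. Each condition was represented by 1 bisulfite sequencing library, and the number of plants behind a library is not stated. The lists hold no expression values, so the leaf identity was taken from the labels.

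In plants, cytosines are methylated in the CG, CHG and CHH contexts, and heavily methylated stretches are often transposons. The end of a gene holds the signals for cleavage and polyadenylation of its transcript, and the DNA past it can include transposon copies or the flank of the next gene. Methylation there was described here without reference to expression, which the lists do not hold. Bisulfite turns unmethylated cytosines into bases read as thymine, so a methylation level is the fraction of cytosine calls that stayed unconverted, from 0 to 1.

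Because there was 1 library per condition, no difference has a replicate check and no test of a difference was made. The word higher or lower below means only that the listed level in the dehydrated library was above or below that in the HD library. Read depth is not in the lists, so the precision of a single level is unknown. Intervals on shares are exact 95% binomial (Clopper-Pearson) intervals over regions and cover counting error only. Every region had been selected by the authors for a difference: one of the paired levels always reached 0.1, and the smallest difference among the downstream regions was 0.06 at 70% RWC and 0.05 at 10% RWC.

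At 70% RWC most downstream regions had a higher level than in the hydrated leaf. Of the 506 regions 349 were higher and 157 lower, a share of 69.0% (64.7 to 73.0), where 70.4% of all listed regions were higher and 29.6% lower. The higher regions had a median level of 0.37 at 70% RWC, against 0.13 in HD. Their median difference was 0.23 (quartiles 0.17 and 0.30). The lower regions had a median of 0.11 at 70% RWC, against 0.33 in HD. They differed by a median of -0.23, with quartiles of -0.32 and -0.15. The largest difference upward was 1 and the largest downward was -0.54.

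At 10% RWC the downstream regions were split almost evenly. Of the 543 regions 279 were higher and 264 lower, a share of 51.4% (47.1 to 55.7), where 55.9% of all listed regions were higher and 44.1% lower. The higher regions had median levels of 0.31 at 10% RWC and 0.11 in HD, with a median difference of 0.20 (quartiles 0.14 and 0.28). The lower ones had medians of 0.16 at 10% RWC and 0.44 in HD, with a median difference of -0.26 (quartiles -0.34 and -0.17). Among the 323 regions that differed by at least 0.2 the share higher was 43.3% (37.9 to 48.9), and among the 166 that differed by at least 0.3 it was 37.3% (30.0 to 45.2), so lower regions were the majority among large differences and higher ones were not. The same shares over all listed regions were 45.9% and 40.9%. At 70% RWC the corresponding downstream shares were 71.5% of 312 regions and 65.2% of 141 regions. Differences of at least 0.3 made up 27.9% of the downstream regions at 70% RWC, against 26% of all listed regions, and 30.6% at 10% RWC, against 23.6%.

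**Figure D1:**
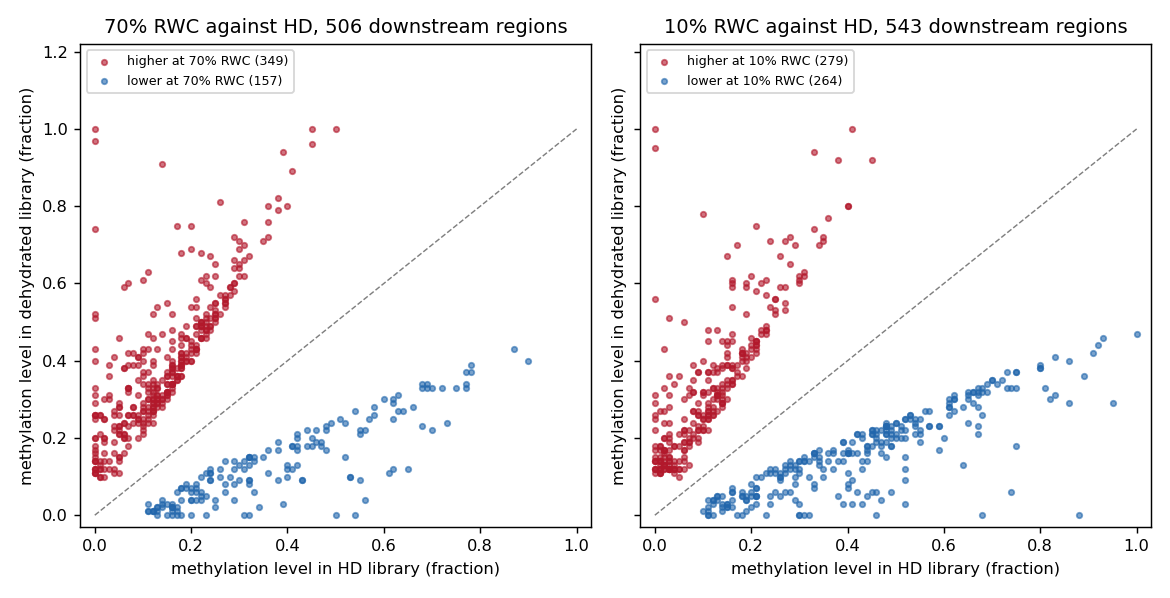
Methylation level (fraction) of each downstream region in the dehydrated library, on the y axis, against its level in the HD library, on the x axis, with 70% RWC on the left and 10% RWC on the right. Each point is 1 region, red where higher and blue where lower than HD, and the dashed line marks equal levels. The 157 blue points at 70% RWC and 264 at 10% RWC reach HD levels of 0.90 and 1.

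The plot of levels shows an empty wedge along the line of equal levels, which is the authors' selection. Grouped by the higher of the 2 levels, the share higher at 70% RWC was 53.7% among the 67 regions from 0.1 to below 0.2, 69.4% from 0.2 to below 0.3, 75.6% from 0.3 to below 0.5 and 66.2% among the 130 regions at 0.5 or above. In the same classes at 10% RWC it was 67.3% of 107 regions, 59.4% of 96 regions, 98 of 196 regions and 36.1% of 144 regions. Few levels were at the ends of the scale. A level of 0 was listed for 11 regions at 70% RWC and for 29 in HD in that comparison. In the other comparison 13 regions had 0 at 10% RWC and 18 had 0 in HD. A level of 1 was listed for 3 regions at 70% RWC, for 2 at 10% RWC and for 1 in HD.

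The label downstream went with the position of the midpoint of a region, although no source used here states the rule. In all 506 regions at 70% RWC and all 543 at 10% RWC the midpoint of the region lay outside the gene. The largest midpoint distances were 1992 bp and 1990 bp, and the outer edge of a region reached as far as 2408 bp and 2413 bp from the gene. Conversely, the midpoint lay within the gene for 1159 of 1162 gene body regions of 1 gene at 70% RWC and for 1335 of 1336 at 10% RWC. Measured from the nearest base of the region to the gene end, the median distance was 642 bp at 70% RWC (quartiles 180 and 1145) and 671 bp at 10% RWC (quartiles 230 and 1167). The regions lay beyond the higher-numbered end of the gene in 258 and 278 cases and before its lower-numbered end in 248 and 265, as genes on either strand would place them. The shares higher for these 2 orientations were 69.0% and 69.0% at 70% RWC, and 52.9% and 49.8% at 10% RWC.

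Among these regions of 1 gene, midpoints were most frequent in the first 250 bp past the gene end, which includes regions that cross it. Leaving out regions listed for several genes shortens the distances. Over all rows labelled downstream the median distance was 744 bp at 70% RWC and 768 bp at 10% RWC. The nearest region clear of its gene lay 2 bp past Bhs358_001V1.1 (0.61 at 70% RWC, 0.22 in HD), and the farthest 1872 bp past Bhs107_067V1.1 (0.26 at 70% RWC, 0.07 in HD). In the other table the nearest was 5 bp past Bhs4025_005V1.1 (0.03 at 10% RWC, 0.43 in HD) and the farthest 1855 bp past Bhs1600_007V1.1 (0.29 at 10% RWC, 0.09 in HD). At 70% RWC 100 midpoints fell in the first 250 bp past the gene and between 46 and 69 in each further stretch of 250 bp up to 2000 bp. For 10% RWC the first stretch held 94 and the others between 50 and 77. In the first stretch 82 regions were higher at 70% RWC and 18 lower. In the same stretch 58 were higher at 10% RWC and 36 lower. From 500 to 750 bp the counts were 40 higher and 24 lower at 70% RWC, and 33 higher and 44 lower at 10% RWC.

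**Figure D2:**
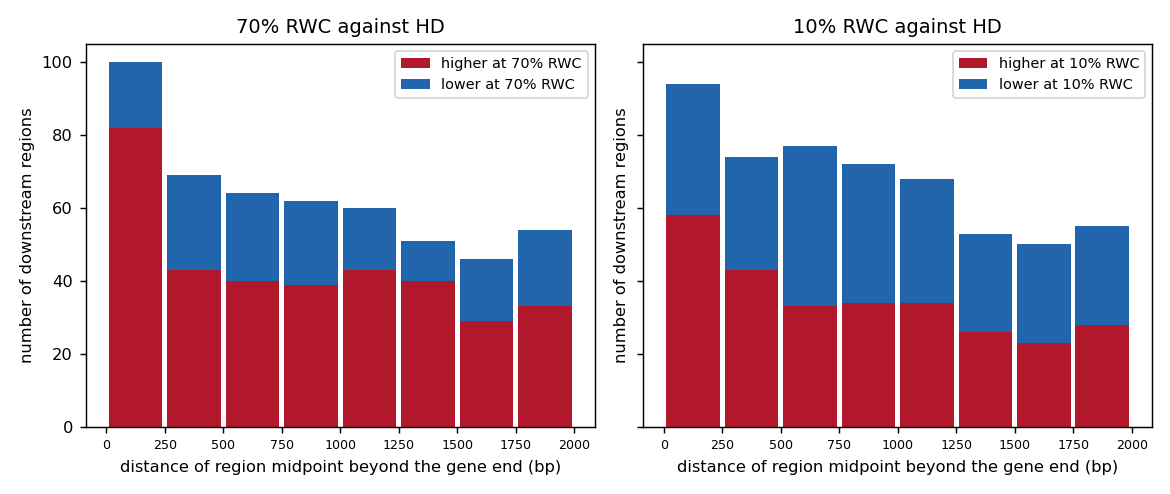
Number of downstream regions by the distance of the region midpoint beyond the gene end, in bp, in bins of 250 bp, for 70% RWC on the left and 10% RWC on the right. Red parts count regions with a higher level and blue parts regions with a lower level than HD, and the first bin is the tallest in both panels, with 100 and 94 regions.

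Among the distance classes, the regions that cross the gene end had the highest share of higher levels in both comparisons. There were 81 of them at 70% RWC (16.0% of the downstream regions), of which 66 were higher, 81.5% (71.3 to 89.2). The 425 regions clear of the gene had 66.6% higher (61.9 to 71.1). At 10% RWC 46 of 73 crossing regions were higher, 63.0% (50.9 to 74.0), and 49.6% (45.0 to 54.2) of the 470 regions clear of the gene. These crossing regions lay mostly in the flank, with a median of 282 bp outside and 88 bp inside the gene at 70% RWC, and 294 bp and 83 bp at 10% RWC. Where they were higher, their median level was 0.34 at 70% RWC, against 0.12 in HD, and 0.265 at 10% RWC, against 0.10 in HD. Clear of the gene the share higher at 70% RWC lay between 63.9% and 67.7% in the 4 distance classes. It varied more in the midpoint stretches of 250 bp. There 40 regions were higher and 11 lower from 1250 to 1500 bp, and 33 were higher and 21 lower from 1750 to 2000 bp. At 10% RWC it was 57.4% within 250 bp, 43.5% between 250 and 500 bp, 49.7% between 500 and 1000 bp and 49.4% beyond, with intervals that overlap.

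The same count was made at other gene edges and places. Upstream regions of 1 gene that crossed the gene start were higher in 36 of 45 cases at 70% RWC, 80.0% (65.4 to 90.4), and in 40 of 68 at 10% RWC, 58.8% (46.2 to 70.6). Gene body regions that ran over either edge were higher in 73.3% of 187 at 70% RWC and in 58.8% of 182 at 10% RWC. All upstream regions of 1 gene had 69.8% higher (65.8 to 73.6) at 70% RWC and 49.2% (45.3 to 53.0) at 10% RWC. All gene body regions of 1 gene had 70.9% (68.2 to 73.5) and 61.6% (58.9 to 64.2). The interval of the downstream share at 10% RWC, 47.1 to 55.7, lies below that of gene bodies and overlaps that of upstream regions. No test of these differences was made.

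**Figure D3:**
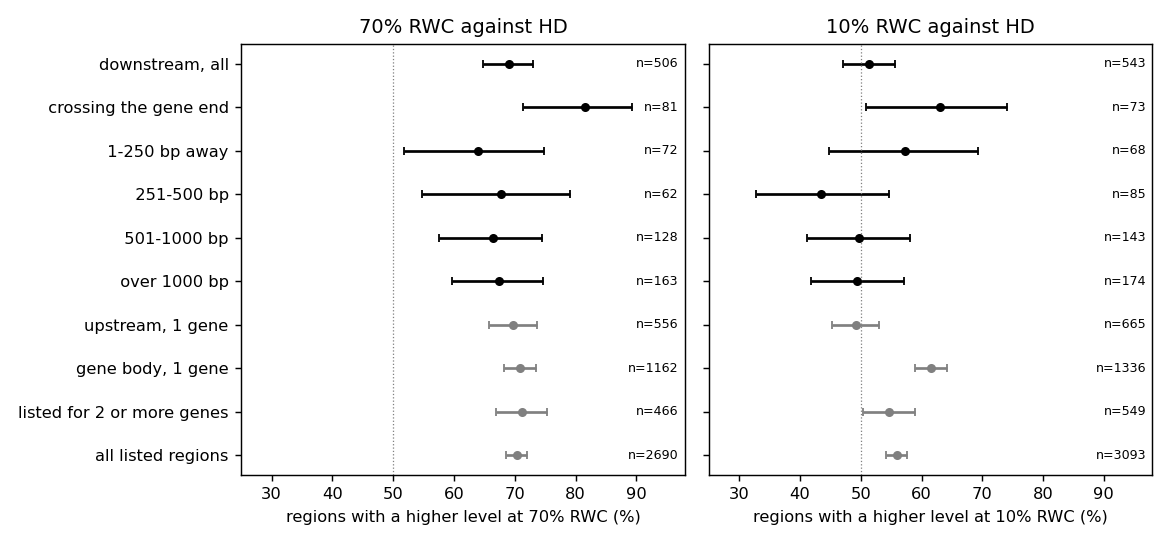
Share of regions with a higher level than HD, in percent, for all downstream regions and their distance classes (black) and for other classes of regions (grey), with 70% RWC on the left and 10% RWC on the right. Points are shares, bars are exact 95% binomial intervals over regions, n is the number of regions, and the dotted line marks 50%. The class that crosses the gene end lies at 81.5% and 63.0%, the farthest right of the black points.

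Most downstream regions were at genes without a KEGG description, as were most upstream regions. The median length was 338 bp at 70% RWC (range 201 to 1378) and 312 bp at 10% RWC (201 to 1518), against 337 bp and 334 bp over all listed regions. A description of the best KEGG match was given for 218 genes (43.1%) at 70% RWC and 243 (44.8%) at 10% RWC, and for 43.5% and 41.2% of upstream regions and 57.7% and 58.8% of gene body regions of 1 gene. At 70% RWC described genes had 75.7% higher regions (69.4 to 81.2) and the others 63.9% (58.1 to 69.4). Of the 81 regions that cross the gene end at 70% RWC, 45 were at described genes (55.6%), against 40.7% of those clear of the gene. The part of this in the difference between described and other genes was not tested. For 10% RWC these shares were 51.0% and 51.7%. The matches of 24 and 19 described genes had an e-value above 1e-10 in the authors' tables and are weak. The regions were spread over 409 and 438 scaffolds, with at most 5 and 6 on a scaffold.

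Genes without a description held the 5 largest differences upward at 70% RWC. Past Bhs3890_002V1.1 the level was 1 at 70% RWC and listed at 0 in HD. Past Bhs9669_003V1.1 it was 0.97 at 70% RWC and listed at 0 in HD. Downstream of Bhs723_014V1.1 (scaffold723, 204077 to 204318) the level was 0.91 at 70% RWC, against 0.14 in HD. Beside Bhs11134_001V1.1, 1023 bp past the gene, it was 0.74 at 70% RWC and listed at 0 in HD. A region across the end of Bhs1090_004V1.1 had 0.75 at 70% RWC and 0.17 in HD. Only 5 bp past Bhs1909_005V1.1 the level was 1 at 70% RWC, against 0.45 in HD. Among genes without a description the largest differences downward were 0.12 at 70% RWC, against 0.65 in HD, 296 bp past Bhs32_049V1.1, and 0.04, against 0.56, past Bhs85_023V1.1. Next to Bhs4895_002V1.1 the level was 0.40 at 70% RWC, against 0.90 in HD.

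Metabolic enzymes were among the described genes with the largest differences upward at 70% RWC. Past Bhs1687_001V1.1 the level was 0.60 at 70% RWC, against 0.07 in HD. It is described as UTP--glucose-1-phosphate uridylyltransferase, which makes the UDP-glucose used for sucrose and cell wall synthesis. Past the alanine transaminase gene Bhs3302_004V1.1, whose enzyme exchanges amino groups between alanine and glutamate, the level was 0.52 at 70% RWC and listed at 0 in HD. Bhs4830_005V1.1, matched to chorismate synthase of the shikimate pathway, had 0.71 at 70% RWC and 0.30 in HD. An L-ascorbate oxidase gene, Bhs649_087V1.1, whose enzyme oxidises ascorbate in the cell wall space, had 0.46 at 70% RWC and 0.05 in HD across its end. Lower levels were listed past Bhs2492_008V1.1, a ribosomal protein gene (L9e), at 0 at 70% RWC and 0.54 in HD. They were also listed past a DNA glycosylase gene of base excision repair, Bhs4714_001V1.1 (0.39 at 70% RWC, 0.78 in HD), and past Bhs158_023V1.1, a cycloartenol synthase of plant sterol synthesis (0.33 at 70% RWC, 0.68 in HD). Cyclin H, a partner of the kinase that activates cell cycle kinases, is encoded by Bhs2150_015V1.1, where the level was 0.15 at 70% RWC and 0.52 in HD.

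At 10% RWC the largest difference in each direction was beside a gene without a description, with described genes among those that followed. Past Bhs2033_017V1.1 the level was 1 at 10% RWC and listed at 0 in HD. The reverse was seen past Bhs200_093V1.1, with 0 at 10% RWC and 0.88 in HD. The level was 0.78 at 10% RWC, against 0.10 in HD, past Bhs1771_002V1.1 (scaffold1771, 62013 to 62430), and 0.75, against 0.21, past Bhs2667_001V1.1. Past Bhs5070_007V1.1 it was 1 at 10% RWC and 0.41 in HD. Bhs3816_013V1.1 had 0 at 10% RWC and 0.68 in HD, and Bhs2451_003V1.1 had 0.29 at 10% RWC and 0.95 in HD. Next to Bhs26_009V1.1 the level was 0.29 at 10% RWC, against 0.86 in HD. Of the 21 downstream regions that differed by at least 0.5 at 10% RWC, 3 were at described genes, and of 25 at 70% RWC, 5 were.

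Described genes with the largest differences upward at 10% RWC included an RNA polymerase subunit and a signal peptidase. Past Bhs685_036V1.1, a subunit shared by the nuclear RNA polymerases (RPABC2), the level was 0.94 at 10% RWC, against 0.33 in HD. Past Bhs4217_003V1.1, described as signal peptidase I, it was 0.43 at 10% RWC and 0.02 in HD. Bhs2625_011V1.1, described only as an outer membrane protein, had 0.56 at 10% RWC and was listed at 0 in HD. A jumonji domain gene, Bhs3579_001V1.1, of a family that holds histone demethylases, had 0.80 at 10% RWC and 0.40 in HD. Lower levels included 0.33 at 10% RWC, against 0.81 in HD, past the cytochrome b-561 gene Bhs6328_002V1.1, a family of ascorbate-dependent electron carriers in membranes. Past Bhs6569_002V1.1, an aminocyclopropanecarboxylate (ACC) oxidase, the enzyme of the last step of ethylene synthesis, the level was 0.21 at 10% RWC and 0.67 in HD. Bhs6700_008V1.1, matched weakly to the ARR-B response regulators of cytokinin signalling, was at 0 at 10% RWC and 0.46 in HD. A fructokinase gene, Bhs5639_002V1.1, which starts the use of fructose, had 0.28 at 10% RWC and 0.67 in HD.

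The described genes were also sorted into 19 lists by keywords in the description, which placed 99 of 218 genes at 70% RWC and 128 of 243 at 10% RWC. These lists are short and can hold described genes only. Each count below therefore stands beside the share higher among described genes, 75.7% at 70% RWC and 51.0% at 10% RWC. Over all downstream regions it was 69.0% and 51.4%. Of the genes placed in a list, 78 of 99 were higher at 70% RWC and 67 of 128 at 10% RWC. The median difference over described genes was 0.18 at 70% RWC and 0.07 at 10% RWC, and over all downstream regions 0.18 and 0.08. No list was tested against these values.

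Transcription factor genes, which control when other genes are read, had 5 of 9 regions higher at 70% RWC and 3 of 10 at 10% RWC, with median differences of 0.08 and -0.30. The 10 include a RING and CHY zinc finger gene, Bhs2668_006V1.1, which the ubiquitin list also holds. Bhs1119_011V1.1, weakly matched to E2F, a family of cell cycle regulators, had a region 211 bp away with 0.09 at 70% RWC, against 0.55 in HD. In the other table its region had 0.20 at 10% RWC and 0.60 in HD. All 3 matches to MYC2, a regulator of jasmonate responses known from Arabidopsis, were higher at 70% RWC, with 0.76 against 0.31 in HD at Bhs211_049V1.1. A region past Bhs387_006V1.1 had 0.26 at 70% RWC and was listed at 0 in HD. The third, Bhs4586_010V1.1, had 0.12 at 70% RWC and 0.04 in HD. At 10% RWC 3 of 4 MYB genes were lower, among them Bhs730_002V1.1 with 0.06 at 10% RWC and 0.74 in HD. The exception was Bhs8992_001V1.1 (0.36 at 10% RWC, 0.18 in HD). EREBP-like factors, a family that includes regulators of ethylene and drought responses, are not caught by the keywords. They were higher in 4 of 5 regions at 70% RWC and in 3 of 6 at 10% RWC.

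Kinases and phosphatases of signalling, which add or remove phosphate on proteins, were higher in 7 of 8 regions at 70% RWC and 7 of 14 at 10% RWC. The median differences were 0.165 and 0.015. The keywords miss other signalling genes, which went both ways. At 70% RWC the ERK1/2 kinase match Bhs1182_029V1.1 was lower (0.14, against 0.33 in HD) and the AZK kinase match Bhs107_099V1.1 higher (0.28, against 0.10 in HD). At 10% RWC matches to the kinase IRAK4 were higher in 1 of 3 regions. Past Bhs18_096V1.1, a protein-serine/threonine kinase, the level was 0.59 at 70% RWC, against 0.06 in HD. Past Bhs861_003V1.1, a match to CTR1, a negative regulator of ethylene signalling in Arabidopsis, it was 0.49 at 70% RWC and 0.19 in HD. Another CTR1 match, Bhs51_030V1.1, had 0.27 at 10% RWC and 0.57 in HD. Only 13 bp past Bhs8524_003V1.1, a match to PBS1, a kinase of plant immunity, the level was 0.60 at 10% RWC and 0.16 in HD. Matches to FLS2, the flagellin receptor of Arabidopsis, were higher in 2 of 3 regions at 70% RWC and in 2 of 6 at 10% RWC. The largest difference among them was at Bhs5599_007V1.1, with 0.35 at 10% RWC and 0.72 in HD. The list of immune receptors, which shares the FLS2 matches, had 4 of 7 regions higher at 70% RWC and 4 of 9 at 10% RWC. Within it Bhs350_037V1.1, a match to the resistance protein RPM1, had 0.43 at 70% RWC and 0.11 in HD, and Bhs734_025V1.1, another, had 0.60 at 10% RWC and 0.22 in HD.

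The list of hormone genes had 5 of 5 regions higher at 70% RWC and 5 of 7 at 10% RWC, but its keywords miss other hormone genes that were lower. Among these were an ARR-B response regulator gene, Bhs121_011V1.1 (0.05 at 70% RWC, 0.23 in HD), an indoleacetate glucosyltransferase gene, Bhs1655_005V1.1 (0.07 at 70% RWC, 0.21 in HD), and the ACC oxidase and ARR-B genes described above at 10% RWC. Others outside the list were higher, such as Bhs17027_002V1.1, a salicylic acid glucosyltransferase gene (0.65 at 70% RWC, 0.30 in HD). Past Bhs6697_001V1.1, a member of the PYR/PYL family of abscisic acid receptors, which pass on the main hormone signal of water deficit, the level was 0.51 at 70% RWC, against 0.21 in HD. Both cytokinin trans-hydroxylase genes, whose enzyme makes trans-zeatin, were higher, Bhs2524_020V1.1 with 0.33 at 70% RWC and 0.07 in HD, and Bhs8350_002V1.1 with 0.50 at 10% RWC and 0.06 in HD. Cytokinin dehydrogenase genes, whose enzyme breaks the hormone down, had 0.15 at 70% RWC and 0.05 in HD at Bhs6896_004V1.1. At Bhs1577_007V1.1 the level was 0.33 at 10% RWC and 0.15 in HD. Auxin efflux carriers went both ways at 10% RWC, with 0.20 against 0.52 in HD at Bhs85_041V1.1 and 0.27 against 0.12 in HD at Bhs2299_009V1.1. The ethylene-responsive factor gene Bhs1878_003V1.1 had 0.37 at 10% RWC and 0.75 in HD.

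Chaperones, which help proteins fold and keep them from clumping, had 4 of 5 regions higher at 70% RWC and 4 of 8 at 10% RWC. Across the end of the 70 kDa heat shock protein gene Bhs85_075V1.1 the level was 0.52 at 70% RWC and 0.16 in HD. Bhs78_014V1.1, of the same family, was at 0 at 10% RWC and 0.17 in HD, and Bhs6050_004V1.1 had 0.32 at 10% RWC and 0.11 in HD. A protein disulfide-isomerase gene, Bhs189_018V1.1, had 0.10 at 70% RWC and 0.26 in HD. The antioxidant list had 4 of 4 regions higher at 70% RWC and 2 of 3 at 10% RWC. Its keywords also caught L-ascorbate oxidases, which oxidise ascorbate, in both comparisons (Bhs649_087V1.1 and Bhs7463_002V1.1). A lactoylglutathione lyase, Bhs3589_001V1.1, was caught by the word glutathione. The list also held a monothiol glutaredoxin, Bhs158_053V1.1, with 0.29 at 70% RWC and 0 in HD. A glutathione S-transferase, Bhs2171_005V1.1, had 0.60 at 70% RWC and 0.29 in HD. At 10% RWC the largest difference in this list was at a putative glutathione S-transferase, Bhs3771_013V1.1, with 0.04 at 10% RWC and 0.19 in HD. The photosynthesis list held 1 region, 43 bp past Bhs1148_012V1.1, the iron-sulfur subunit of the cytochrome b6-f complex (0.29 at 70% RWC, 0.13 in HD).

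Cell wall genes had 6 of 9 regions higher at 70% RWC and 1 of 6 at 10% RWC, with median differences of 0.17 and -0.185. All 3 regions of xyloglucan:xyloglucosyl transferases, which cut and rejoin wall xyloglucan, were higher at 70% RWC. The levels were 0.43 at 70% RWC and 0.13 in HD across the end of Bhs2524_007V1.1. Past Bhs49_019V1.1 the level was 0.30 at 70% RWC and 0.13 in HD. Past Bhs119_054V1.1 it was 0.31 at 70% RWC and listed at 0 in HD. An endoglucanase gene, Bhs4194_001V1.1, had 0.67 at 70% RWC and 0.32 in HD. Cellulose synthase A genes, which build the wall's cellulose, were lower in all 3 regions over both tables, with 0.37 at 70% RWC and 0.78 in HD at Bhs710_021V1.1, 0.15 at 70% RWC and 0.32 in HD at Bhs194_024V1.1, and 0.07 at 10% RWC and 0.33 in HD at Bhs71_020V1.1. Both galacturonosyltransferase genes of pectin synthesis were lower, Bhs200_098V1.1 (0.10 at 10% RWC and 0.29 in HD) and Bhs5191_002V1.1 (0.15 at 10% RWC and 0.33 in HD). A pectinesterase gene, Bhs6331_001V1.1, was the higher one, with 0.27 at 10% RWC and 0.09 in HD.

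**Figure D4:**
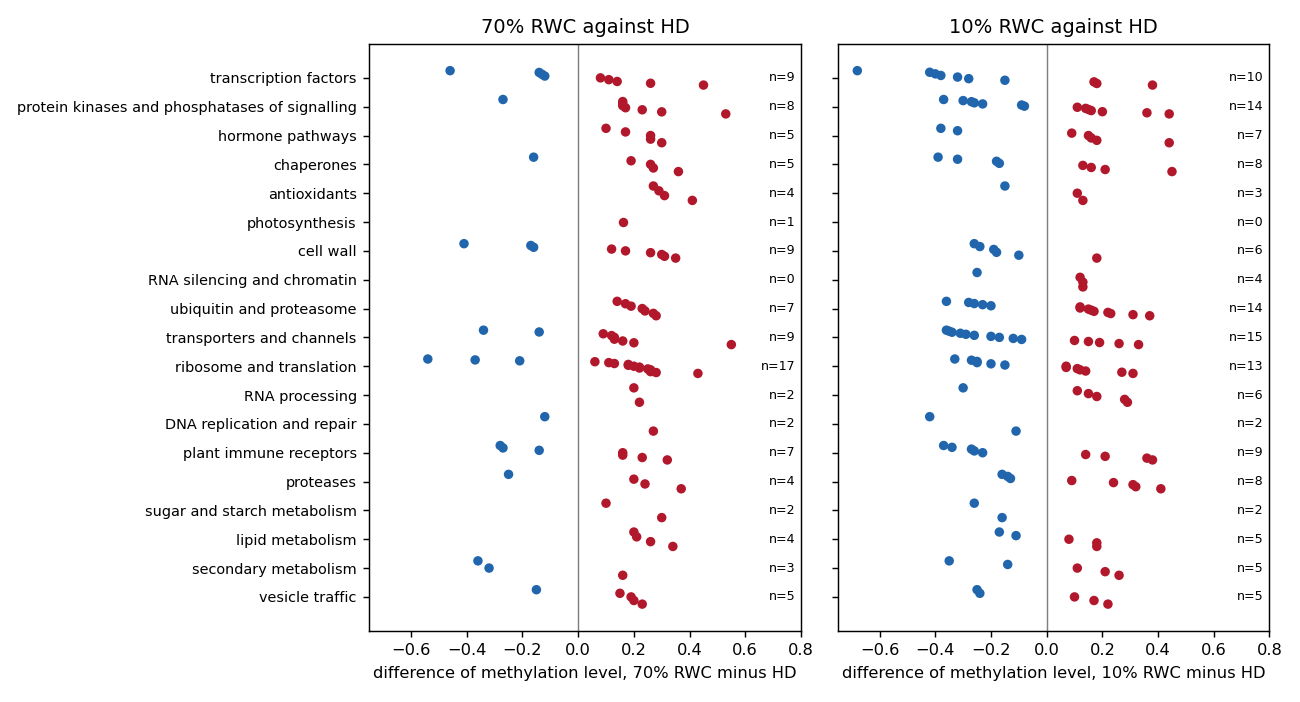
Difference of methylation level, dehydrated minus HD, on the x axis, for each downstream region in each of the 19 keyword lists, with 70% RWC on the left and 10% RWC on the right. Each dot is 1 region, red above 0 and blue below, shifted vertically only so that dots can be told apart, and n is the number of regions in the list. Cell wall genes have 6 of 9 dots to the right of 0 at 70% RWC and 1 of 6 at 10% RWC.

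Transporters and channels were higher in 7 of 9 regions at 70% RWC and in 5 of 15 at 10% RWC, with median differences of 0.13 and -0.17. Past Bhs11144_001V1.1, of the solute carrier 17 family of phosphate cotransporters, the level was 0.81 at 70% RWC, against 0.26 in HD. In the other table the same stretch had 0.59 at 10% RWC. Aquaporins, the water channels of membranes, were lower at 10% RWC in all 3 listed genes. Bhs4625_004V1.1, of the NIP group, had 0.23 at 10% RWC and 0.59 in HD. Bhs189_038V1.1, of the PIP group, had 0.18 at 10% RWC and 0.49 in HD, and Bhs7229_002V1.1, also PIP, had 0.07 at 10% RWC and 0.16 in HD. The last was higher at 70% RWC (0.24, against 0.11 in HD). ABC transporters, which pump compounds with ATP, included Bhs49_077V1.1 with 0.34 at 70% RWC and 0.68 in HD, and Bhs4782_001V1.1 with 0.27 at 10% RWC and 0.01 in HD.

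Ubiquitin and proteasome genes tag and break down proteins. Their list had 7 of 7 regions higher at 70% RWC and 9 of 14 at 10% RWC. Its keywords miss the weak match Bhs10_087V1.1 to an adapter of CUL3-mediated protein degradation, which was lower (0.18 at 70% RWC, 0.41 in HD). Further genes of protein breakdown outside the list were not counted. The weak RNF115/126 ligase match Bhs1119_046V1.1 had 0.49 at 70% RWC and 0.21 in HD, and 0.72 at 10% RWC and 0.35 in HD in the other table. A proteasome ATPase gene, Bhs2_103V1.1 (subunit T5), had 0.19 at 10% RWC and 0.55 in HD, 14 bp past its end. Both genes of another such subunit, T2, were higher. They were Bhs197_008V1.1 (0.26 at 10% RWC, 0.11 in HD) and Bhs6477_002V1.1 (0.28 at 10% RWC, 0.11 in HD). Proteases had 3 of 4 regions higher at 70% RWC and 5 of 8 at 10% RWC. Past Bhs6665_002V1.1, a carboxypeptidase, the level was 0.66 at 70% RWC and 0.29 in HD. FtsH proteases, which in plants repair photosystems and act in mitochondria, went both ways at 70% RWC. The level was 0.11 at 70% RWC and 0.36 in HD at Bhs211_006V1.1, and 0.38 at 70% RWC and 0.18 in HD at Bhs685_071V1.1. Both FtsH genes listed at 10% RWC were higher. Bhs1209_014V1.1 had 0.61 at 10% RWC and 0.30 in HD, and Bhs2834_012V1.1 had 0.32 at 10% RWC and 0.08 in HD.

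The list of ribosome and translation genes had 14 of 17 regions higher at 70% RWC and 7 of 13 at 10% RWC. Its keywords also caught general transcription factors such as TFIIH, which are no part of translation. The weak match Bhs8860_001V1.1 to a translation factor had 0.67 at 70% RWC and 0.24 in HD, and Bhs3433_003V1.1, ribosomal protein S26e, had 0.55 at 70% RWC and 0.27 in HD. At Bhs269_015V1.1, ribosomal protein L7Ae, the level was 0.21 at 10% RWC and 0.54 in HD. The RNA processing list had 2 of 2 regions higher at 70% RWC and 5 of 6 at 10% RWC. One of the pair at 70% RWC, Bhs379_036V1.1, is described as an etoposide-induced mRNA and was caught by the word mRNA alone. At 10% RWC Bhs106_004V1.1, the splicing factor CWC22, had 0.53 at 10% RWC and 0.25 in HD, and Bhs49_051V1.1, the splicing factor U2AF, had 0.24 at 10% RWC and 0.54 in HD. The keyword list of silencing and chromatin genes had 3 of 4 regions higher at 10% RWC and held no downstream region at 70% RWC. Over all places the list held 13 genes at 70% RWC and 29 at 10% RWC. The higher ones were an argonaute gene that loads small RNAs (Bhs1483_003V1.1, 0.15 at 10% RWC and 0.03 in HD), a histone deacetylase gene (Bhs4569_004V1.1, 0.19 at 10% RWC and 0.06 in HD) and a histone H1 gene (Bhs5337_001V1.1, 0.21 at 10% RWC and 0.08 in HD). The lower one was a histone H2B gene, Bhs183_064V1.1, with 0.23 at 10% RWC and 0.48 in HD. The keywords miss other genes that may belong here, such as the bromodomain match Bhs187_005V1.1 (0.50 at 70% RWC, 0.22 in HD). They also miss the jumonji domain gene described above at 10% RWC. Such genes outside the list were not counted.

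Metabolic lists were the shortest. The lipid list had 4 of 4 regions higher at 70% RWC and 3 of 5 at 10% RWC. Its keywords caught a carotenoid enzyme and missed the sterol gene Bhs158_023V1.1 described above, which was lower (0.33 at 70% RWC, 0.68 in HD). A glycerol-3-phosphate acyltransferase gene, which starts glycerolipid synthesis, had 0.64 at 70% RWC and 0.30 in HD (Bhs553_002V1.1). Phospholipase D genes, which cut membrane phospholipids, had 0.28 at 70% RWC and 0.08 in HD at Bhs3997_016V1.1. At Bhs3093_005V1.1 the level was 0.09 at 10% RWC and 0.26 in HD. Sugar and starch genes caught by the keywords had 2 of 2 regions higher at 70% RWC and 0 of 2 at 10% RWC. They were a starch-degrading beta-amylase (Bhs45_110V1.1, 0.57 at 70% RWC and 0.27 in HD), a trehalose-phosphate synthase (Bhs146_026V1.1, 0.16 at 70% RWC and 0.06 in HD), a weakly matched starch phosphorylase (Bhs10013_001V1.1, 0.24 at 10% RWC and 0.50 in HD) and a sucrose-phosphate synthase (Bhs32_121V1.1, 0.13 at 10% RWC and 0.29 in HD). Sucrose-phosphate synthase makes the sugar that builds up in drying leaves of many resurrection plants. The sugar keywords miss Bhs1687_001V1.1, described above, which was higher at 70% RWC. They also miss the fructokinase gene Bhs5639_002V1.1, which was lower at 10% RWC. Secondary metabolism genes had 1 of 3 regions higher at 70% RWC and 3 of 5 at 10% RWC. Past the cinnamoyl-CoA reductase gene Bhs119_059V1.1, of lignin synthesis, the levels were 0.31 at 70% RWC and 0.63 in HD, and 0.32 at 10% RWC and 0.67 in HD. The list of DNA replication and repair genes had 1 of 2 regions higher at 70% RWC and 0 of 2 at 10% RWC. Past the PIF1 helicase match Bhs3922_002V1.1 the level was 0.33 at 10% RWC and 0.75 in HD. Its keywords miss the DNA glycosylase gene Bhs4714_001V1.1 described above, which was lower at 70% RWC. They also miss matches to SLX1, a subunit of a structure-specific endonuclease. These were higher in 3 of 7 regions at 70% RWC and in 4 of 7 at 10% RWC. Vesicle traffic genes had 4 of 5 regions higher at 70% RWC and 3 of 5 at 10% RWC. The SNARE gene Bhs6552_001V1.1, of membrane fusion, had 0.21 in HD, 0.44 at 70% RWC and 0.43 at 10% RWC over the same stretch.

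Some downstream regions were listed at both water contents. Overlaps of at least 1 bp joined 109 regions of each table, 21.5% of those at 70% RWC and 20.1% of those at 10% RWC. Counting an overlap with any listed region of the other table, the shares of downstream regions were 24.5% at 70% RWC and 21.9% at 10% RWC, and those of all distinct regions were 26.4% and 23.0%. In 107 cases both belonged to the same gene. Both tables use the same HD library, so a match between them is not independent and is given as values only. In 24 cases the boundaries were identical, and then the HD level was identical too. In the other 85 the HD levels differed by a median of 0.05 and by up to 0.42, the cause of which was not tested. The largest gap was at Bhs2152_012V1.1, where 231 bp were shared and the HD level was 0.26 in the 70% RWC table and 0.68 in the 10% RWC table. Past Bhs9669_003V1.1 the level was 0.97 at 70% RWC and 0.95 at 10% RWC, and 0 in HD in both tables. At Bhs5070_007V1.1 it was 0.94 at 70% RWC and 0.39 in HD in one table, and 1 at 10% RWC and 0.41 in HD in the other. Lower levels were listed past Bhs32_049V1.1 (0.12 at 70% RWC and 0.65 in HD, 0.18 at 10% RWC and 0.75 in HD), Bhs419_012V1.1 (0.10 at 70% RWC and 0.53 in HD, 0.03 at 10% RWC and 0.52 in HD) and Bhs2033_008V1.1 (0.33 at 70% RWC and 0.75 in HD, 0.23 at 10% RWC and 0.67 in HD).

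**Figure D5:**
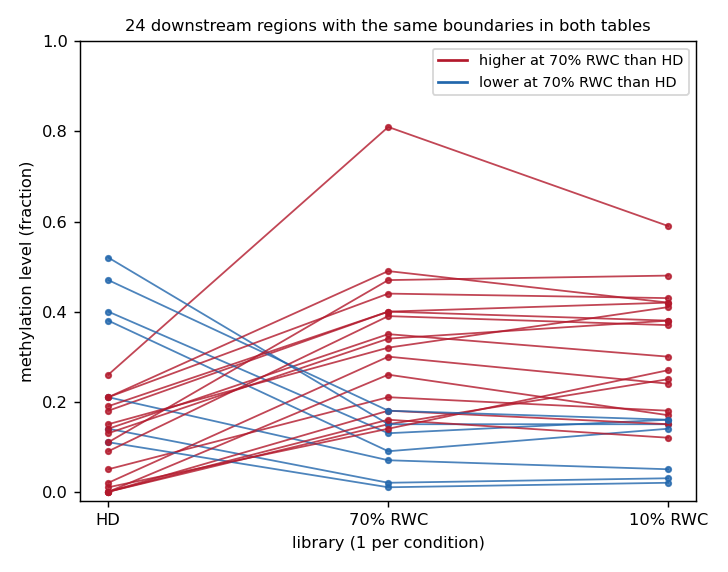
Methylation level (fraction) in the HD, 70% RWC and 10% RWC libraries of the 24 downstream regions with the same boundaries in both tables. Each line is 1 region, red where higher and blue where lower at 70% RWC than in HD. The steepest red line, at Bhs11144_001V1.1, has 0.26 in HD, 0.81 at 70% RWC and 0.59 at 10% RWC.

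The plot of the 24 stretches shows levels at all 3 water contents for genes of several functions. Past Bhs760_010V1.1, the beta subunit of the F-type ATP synthase, which makes ATP, the level was 0.09 in HD, 0.39 at 70% RWC and 0.37 at 10% RWC. Beside Bhs336_009V1.1, a subunit of the ARP2/3 complex that nucleates actin filaments, it was 0.21, 0.49 and 0.42 in the same order. For Bhs1379_011V1.1, a calmodulin-like calcium sensor, it was 0.40, 0.13 and 0.16. Bhs2150_015V1.1, the cyclin H gene, had 0.52 in HD and 0.15 in both dehydrated libraries. A region past Bhs4782_001V1.1, the ABC transporter, had 0.01, 0.14 and 0.27. Regions entered both tables only after passing the selection in each of them.

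Many of the genes were listed in only one of the tables. Of the 506 genes at 70% RWC 335 were not in the 10% RWC table, and of the 543 genes at 10% RWC 393 were not in the 70% RWC table. These are 66.2% and 72.4%, against 60.3% and 65.5% of all genes listed at 70% RWC and at 10% RWC. Absence from a table means only that no region passed the selection there. As each gene is listed once per table, a gene with several altered regions shows only 1 of them. Of the 70% RWC genes that were in the other table, 32 had a gene body region there and 16 an upstream region, and of the 10% RWC genes 21 and 10. In 7 genes both tables gave a downstream region, but separate ones. Past Bhs1810_015V1.1, an anthranilate synthase of tryptophan synthesis, the level 342 bp away was 0.72 at 70% RWC and 0.36 in HD. At 804 bp from the same gene it was 0.13 at 10% RWC and 0.34 in HD. Bhs6328_002V1.1, the cytochrome b-561 gene, had 0.54 at 70% RWC and 0.24 in HD at 707 bp, and 0.33 at 10% RWC and 0.81 in HD at 1789 bp.

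Between convergent genes, whose ends face each other, the listed regions could differ in direction. Neighbouring downstream regions of different genes lay within 2000 bp of each other in 1 pair at 70% RWC and in 2 pairs at 10% RWC, and in these pairs the genes faced each other. At 10% RWC a region past the HtpG chaperone gene Bhs129_013V1.1 (scaffold129, 117319 to 117530) had 0.06 at 10% RWC and 0.45 in HD. The next region, 927 bp on (118458 to 118768) and past the DnaJ homolog gene Bhs129_014V1.1, had 0.61 at 10% RWC and 0.16 in HD. At 70% RWC the pair Bhs22_004V1.1 and Bhs22_005V1.1 had 0.12 at 70% RWC and 0 in HD, and 0.12 at 70% RWC and 0.40 in HD. Past Bhs7473_001V1.1 and Bhs7473_002V1.1, only 4 bp apart, both were lower (0.23 at 10% RWC and 0.48 in HD, 0.11 at 10% RWC and 0.24 in HD). These pairs were chosen after their values were seen.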

How the data were processed

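Leaf DNA was sonicated, ligated to methylated adaptors, bisulfite treated with a commercial kit and sequenced, per the labels' protocols. The deposited tables give, per the file headers, the mean methylation level of a region as a fraction in the hydrated and in 1 dehydrated library. The genome build, aligner and region caller, and the coverage and cytosine context of a level, were not given in the sources used here. Therefore positions are those of the deposited tables and no sequence is shown.

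Regions labelled downstream and listed in 1 row were kept. The gene end was taken as start plus length minus 1, since the deposited gene end, rounded, differed for 14 of the genes at 70% RWC and 31 at 10% RWC. Distance runs from the nearest base of the region to the gene end, and is 0 for regions that cross it. Shares, medians and exact binomial intervals were computed with Python 3.11.15, pandas 2.3.3, numpy 2.4.6 and scipy 1.17.1, tested on simulated data. With 1 library per condition no p-value is given.

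Named genes are the 10 largest differences with and 5 without a description per table and direction, the largest of each list, the 3 nearest and farthest, and the largest overlapping ones; some are left out for brevity and further list members were named after their values were seen. Members and lists were chosen with earlier results of these data known. Lists use the description of the best KEGG match alone. Alternatives tried were minimum differences and lengths, all downstream rows, 1 region per scaffold, other distances and overlap rules.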

Additional observations from a re-analysis of the deposited data

Results flagged for a closer look

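At 4 genes overlapping downstream regions were listed with opposite directions in the 2 comparisons, which was noticed from the sign alone. The difference between the comparisons was not tested. For Bhs2152_012V1.1, a polyneuridine-aldehyde esterase, the level was 0.57 at 70% RWC and 0.26 in HD, and 0.33 at 10% RWC and 0.68 in HD, so the difference at 10% RWC minus that at 70% RWC was -0.66. Its regions shared 231 bp, and the 2 listed HD levels were 0.42 apart. For Bhs10789_002V1.1 the levels were 0.59 at 70% RWC and 0.24 in HD, and 0.08 at 10% RWC and 0.33 in HD, a contrast of -0.60. For Bhs11409_002V1.1 they were 0.10 at 70% RWC and 0.22 in HD, and 0.35 at 10% RWC and 0.16 in HD, a contrast of 0.31. For the aquaporin gene Bhs7229_002V1.1, whose regions shared 39 bp, they were 0.24 at 70% RWC and 0.11 in HD, and 0.07 at 10% RWC and 0.16 in HD, and the contrast was -0.22.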

How the results depend on the processing

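Results were recomputed under 44 alternatives, of which 9 gave the values that follow. In the other 35 a share or median lay within the 95% interval of the value given, or the count of overlaps was 93, 119 or 124. The share of higher regions at 10% RWC, 51.4%, was 43.3% with a minimum difference of 0.2 and 37.3% with 0.3. The median distance at 70% RWC, 642 bp, was 834 bp from the midpoint, 744 bp over all rows labelled downstream and 751 bp with a minimum difference of 0.2. At 10% RWC the median of 671 bp was 849 bp, 768 bp and 774 bp in the same order. The count of overlapping regions, 109, was 24 with identical boundaries. Without the regions that cross the gene end, a choice made after the data were seen, the shares higher were 66.6% at 70% RWC and 49.6% at 10% RWC. No paired analysis was possible because each condition has 1 library. Depth is unknown and limits every single level.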
